A study of Homo sapiens with 22 samples.

Results

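The glucocorticoid receptor and its coregulators were followed here through 9 genes: the receptor NR3C1, its closest relative NR3C2, the p160 coactivators NCOA1, NCOA2 and NCOA3, the acetyltransferases EP300 and CREBBP, and the corepressors NCOR1 and NRIP1. They were chosen by name from the glucocorticoid receptor pathway, and all 9 were found once among the 20668 gene symbols listed in each RNA-seq sample. All 9 also passed the filter on low values, an RPKM (reads scaled to transcript length and to the mapped reads of the sample) of at least 0.5 in at least 2 samples, which kept 12713 genes. Across the 10 samples their levels ran from 0.604 RPKM for NR3C2 to 25.5 RPKM for NR3C1.

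Transcripts were measured in MDA-MB-231, an established human triple-negative breast cancer line kept before treatment in medium whose serum had been stripped of steroids. The 5 groups of 2 samples received vehicle, 100 nM dexamethasone (Dex, a synthetic glucocorticoid and full agonist of the receptor) for 2 or 4 h, or 10 µM Compound A (CpdA, a non-steroidal ligand of the receptor) for 2 or 4 h. The labels give the vehicle samples no time point, and all 4 comparisons with vehicle share the same 2 vehicle samples. In these comparisons the effect of treatment and that of time cannot be told apart, also where both ligands changed a gene alike. The other 12 samples, of protein binding to chromatin, were not analysed here.

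The glucocorticoid receptor is a transcription factor held in the cytoplasm by chaperones until it binds its ligand, when it moves to the nucleus and binds DNA at glucocorticoid response elements, or is drawn to other factors such as AP-1 and NF-κB. There it recruits p160 coactivators, which in turn bring the acetyltransferases p300 (EP300) and CBP (CREBBP) to open chromatin, while NCOR1 and NRIP1 (also called RIP140) bring histone deacetylases and lower transcription. Receptor transcript is known to fall under its own agonist in many cell types, and in breast epithelium the receptor acts beside the oestrogen and progesterone receptors.

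Marker transcripts of the line were read first. VIM, an intermediate filament protein of mesenchymal cells, lay between 1267 and 1464 RPKM, and CDH1 (E-cadherin) between 0.226 and 0.465 RPKM. The other epithelial markers listed were expressed, KRT18 between 164.2 and 218.5 RPKM and EPCAM between 8.02 and 10.6 RPKM. ESR1 and PGR, the oestrogen and progesterone receptors, did not exceed 0.00484 and 0.00253 RPKM, whereas ERBB2 lay between 15.9 and 21.6 RPKM. The markers of blood (PTPRC, CD3E), endothelium (PECAM1) and liver (ALB) stayed at or below 0.324 RPKM in every sample. Both vehicle samples were the shallowest by relative depth (1.0 and 1.01, against 1.06 to 1.21 in the treated samples), whose part in the results was not tested.

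At rest, the receptor was the most abundant of the 9 transcripts per unit length. In vehicle NR3C1 stood at 21.6 ± 1.81 RPKM (SD, n = 2, as for each mean below), followed by NCOR1 at 14.2 ± 1.02 RPKM. EP300 (8.70 ± 0.431 RPKM) and NCOA3 (8.52 ± 0.0383 RPKM) came next with overlapping samples, then CREBBP at 7.94 RPKM and NCOA1 at 5.00 RPKM. NRIP1 (3.00 RPKM) and NCOA2 (2.75 RPKM) overlapped, and NR3C2 was lowest at 1.46 ± 0.372 RPKM. Among all listed genes, NR3C1 ranged over the samples from the 72.9th to the 86.8th percentile of RPKM and NR3C2 from the 41.9th to the 49.1st. Of other steroid receptors, PGR, ESR1 and ESR2 did not exceed 0.0938 RPKM in any sample and did not pass the filter.

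The order of the levels changed at its top with Dex and not with CpdA. Of the 36 pairs of members, 30 kept 1 order in all 10 samples. NR3C1 led in vehicle and at both CpdA times, whereas after 2 h of Dex NCOR1 led (15.4 RPKM against 14.6 for NR3C1), and after 4 h the highest mean was that of NCOA3 (16.5 ± 3.09 RPKM), above NCOR1 (12.8 RPKM) and NR3C1 (11.0 RPKM). At 4 h of Dex the samples of NCOR1 overlapped those of NCOA3 and of NR3C1, whereas both samples of NCOA3 lay above both of NR3C1, and each sample gave the same order of the 3 genes. The plot of member levels by sample gives each value.

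**Figure D1:**
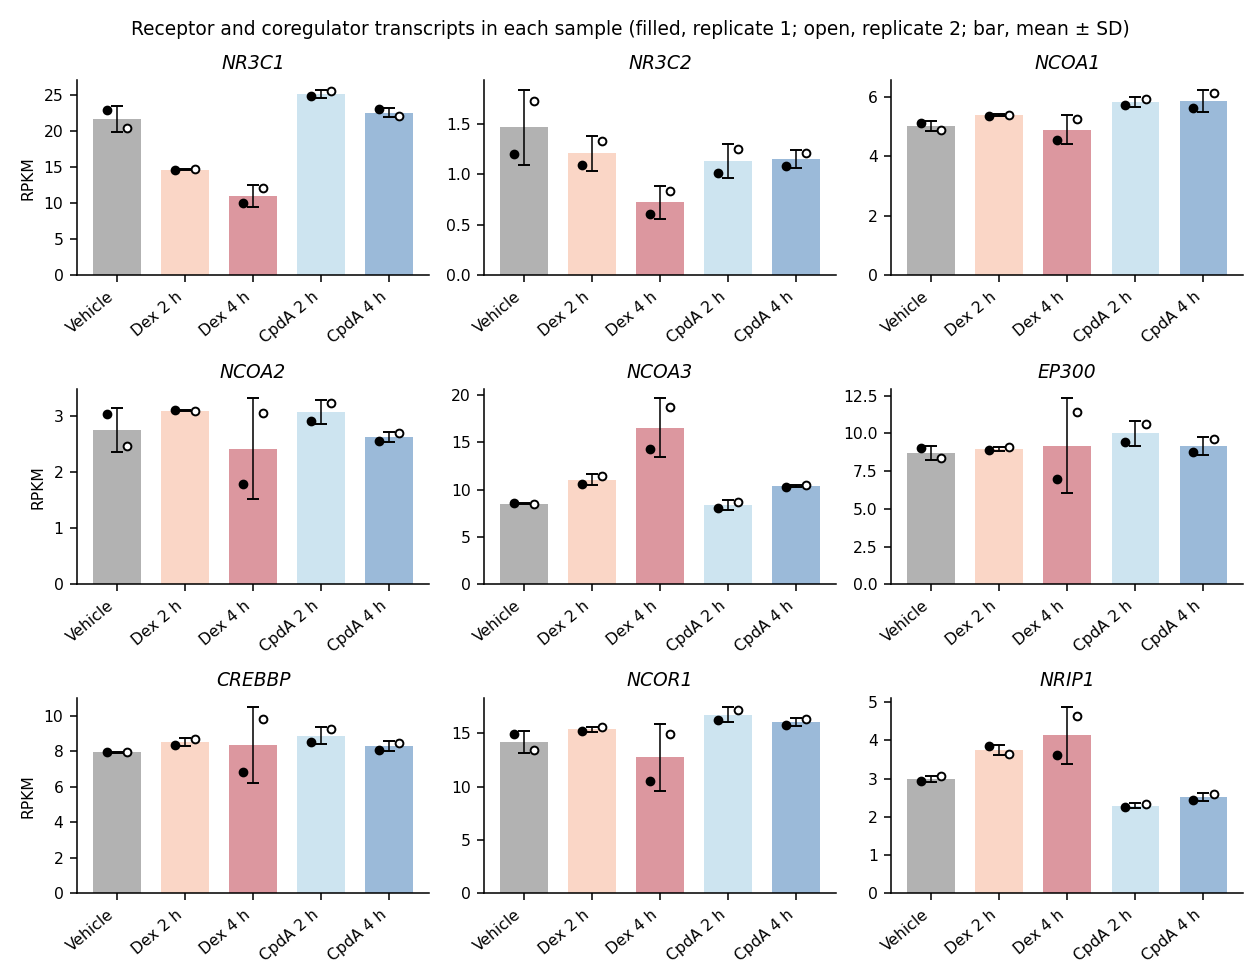
RPKM (vertical axis, from 0, a scale for each gene) of the 9 genes in the 5 groups on the horizontal axis; bars are means of 2 samples, error bars SD, filled points replicate 1 and open points replicate 2. NR3C1 fell from 21.6 to 11.0 RPKM by 4 h of Dex while NCOA3 rose from 8.52 to 16.5 RPKM, and in all 9 panels the filled point of Dex 4 h lies below the open one.

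NR3C1, the receptor itself (ENSG00000113580, GRCh37 chr5:142657496-142815077, minus strand, 9 exons), fell under Dex at both times. It measured 22.9 and 20.4 RPKM in vehicle, 14.6 and 14.7 RPKM after 2 h of Dex and 9.96 and 12.1 RPKM after 4 h. At Dex 2 h 6545 and at Dex 4 h 7005 of the 12713 genes did not overlap vehicle, and 6746 did not overlap between these times. For NR3C1 every Dex sample lay below both vehicle samples and the times did not overlap. On the log2(RPKM + 0.1) scale used for all fold changes, the change from vehicle was -0.56 ± 0.09 (SE) at 2 h (adjusted p = 0.0027, limma with Benjamini-Hochberg adjustment over the 12713 genes, as for every adjusted p below) and -0.97 ± 0.09 at 4 h (adjusted p = 3.7e-05), which left 67.9% and then 51.0% of the vehicle level. In bulk samples such as these, fewer cells with the transcript and less of it per cell cannot be told apart. The further decrease from 2 h to 4 h was -0.41 (adjusted p = 0.015).

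With CpdA the receptor transcript changed less from vehicle than with Dex. NR3C1 measured 24.7 and 25.5 RPKM after 2 h of CpdA and 22.96 and 22.1 RPKM after 4 h, which overlapped vehicle at 4 h only. The change was 0.22 at 2 h (95% interval 0.02 to 0.41, adjusted p = 0.19) and 0.06 at 4 h (-0.14 to 0.26, adjusted p = 0.68), neither past the threshold of 0.05. In the alternative settings the 2 h change was called higher in 4 of 22 and the 4 h change in 0 of 22. Compared directly at matched times, though not at matched doses, Dex-treated cells held less NR3C1 than CpdA-treated cells by -0.78 at 2 h (adjusted p = 0.00028) and by -1.03 at 4 h (adjusted p = 2.1e-05), a level 58.4% and 48.9% of that with CpdA. Each of these Dex calls held in all 22 alternative settings tried, with Dex 4 h against vehicle between -1.11 and -0.80; the decrease from 2 h to 4 h held in 18 of 22 and was lost without either Dex 2 h sample (adjusted p = 0.087 and 0.085).

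NR3C2, the mineralocorticoid receptor, which also binds glucocorticoids (ENSG00000151623, GRCh37 chr4:148999913-149365850, minus strand), fell after 4 h of Dex. Its vehicle samples differed most in relative terms of the members, at 1.201 and 1.73 RPKM. It measured 1.09 and 1.33 RPKM after 2 h of Dex and 0.604 and 0.839 RPKM after 4 h, the only group wholly below vehicle and below all other samples. The change was -0.24 at 2 h (adjusted p = 0.58) and -0.92 ± 0.20 at 4 h (adjusted p = 0.0089), or 52.7% of vehicle. With CpdA the values were 1.01 and 1.25 RPKM at 2 h and 1.084 and 1.21 RPKM at 4 h, with changes of -0.33 (adjusted p = 0.41) and -0.31 (adjusted p = 0.33).

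Limits on NR3C2 were the low level and the duplicates. The Dex 4 h call was lost in 3 of 21 alternatives. They were the fits without Dex 4 h replicate 1 (-0.72), without vehicle replicate 2 (-0.68), and without Dex 4 h replicate 1 after the length correction described below. In each, the remaining sample of the group was assumed to vary like the other groups. The difference between Dex and CpdA at 4 h (-0.62, adjusted p = 0.045) held in only 9 of 21 alternatives. With a pseudocount of 1, which shrinks changes of low genes, the Dex 4 h change was -0.51 (adjusted p = 0.0098) and the difference from CpdA -0.32 (adjusted p = 0.061). NR3C1 exceeded NR3C2 in every sample, by 11.0 to 24.4 times.

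Letters of the glucocorticoid response element were searched around the members, since Dex acts through a receptor that binds such sites. The motif was the half-site GNACA, any 3 bases and TGTNC (N being any base), which reads the same on both strands, in the 10 kb on either side of the start of each gene's canonical transcript (GRCh37). It occurred in 22.9% of 17472 such windows over all genes with a canonical transcript, and in those of NR3C2, NCOA1, NCOA2 and CREBBP, 1 match each. In the windows of NR3C1, NCOA3, NRIP1, EP300 and NCOR1 these letters did not occur, nor did they occur between the canonical transcript's ends of NR3C1, NCOA3, NRIP1 and EP300, although 82.4% of 2076 expressed genes with a span at least as long as that of EP300 held at least 1. Between those ends NCOA2, which passed no test, held 6 matches, NR3C2, NCOA1 and CREBBP 2 each and NCOR1 1. The NCOA2 sequences are not reported here. Of the 35116 RefSeq promoters of 300 bases (GRCh38.p14) 0.39% held the motif, and none of the members' did. The sequences below are shown because they are the matches nearest to the starts of NR3C2, NCOA1 and CREBBP and the matches inside NR3C2, the only member changed by Dex against vehicle that held any; they are read on the gene's strand, 5′ to 3′, with the motif in capitals. 
NR3C2, 1.4 kb upstream of the canonical start and within the annotated gene, chr4:149364942-149364968: cctttggGCACAGGGTGTCCcccggtc
NR3C2, inside, 293.2 kb from the start, chr4:149070350-149070376: ttagaatGAACATTTTGTTCtctgttc
NR3C2, inside, 307.0 kb from the start, chr4:149056527-149056553: aggaaaaGAACACCTTGTCCtcatgtg
NCOA1, inside, 7.3 kb from the start, chr2:24721453-24721479: acaaggaGAACAGTATGTTCaggaaga
CREBBP, 2.4 kb upstream of the canonical start, chr16:3933122-3933148: ggtggctGGACACCTTGTCCcgtttga
A match is a run of letters and not a measured binding site, and its absence from a window says nothing about binding elsewhere or to other sequences.

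NCOA3 (SRC-3 or AIB1, a p160 coactivator amplified in some breast cancers; ENSG00000124151, GRCh37 chr20:46130631-46285621, plus strand, 23 exons) rose with Dex. It measured 8.55 and 8.496 RPKM in vehicle, 10.6 and 11.5 RPKM after 2 h of Dex, and 14.3 and 18.7 RPKM after 4 h. No Dex sample overlapped vehicle and the times did not overlap. The change at 4 h was 0.93 ± 0.11 (adjusted p = 0.00019), 1.91 times vehicle, and it stood between 0.74 and 1.14 in all 22 alternatives, each past the threshold. At 2 h the value was 0.37 (95% interval 0.13 to 0.61, adjusted p = 0.066), past the threshold in 8 of 22 alternatives. The rise from 2 h to 4 h was 0.57 (adjusted p = 0.0097), and the call was lost with only the 4 samples compared (adjusted p = 0.066) and without Dex 2 h replicate 1 (0.51, adjusted p = 0.082).

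CpdA left NCOA3 at 7.999 and 8.72 RPKM at 2 h and 10.3 and 10.5 RPKM at 4 h. The 4 h samples lay above both vehicle samples, but the change of 0.28 (95% interval 0.04 to 0.52) had an adjusted p of 0.10, and that at 2 h was -0.03 (adjusted p = 0.92). The 4 h change was past the threshold in 6 of 22 alternatives and the 2 h change in 0 of 22. The Dex level exceeded the CpdA level by 0.40 at 2 h (adjusted p = 0.039, held in 12 of 22 alternatives) and by 0.65 at 4 h (adjusted p = 0.0014, held in all 22), or 1.57 times at 4 h.

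The other p160 genes did not rise with it. NCOA1 (SRC-1; ENSG00000084676, GRCh37 chr2:24714123-24993571, plus strand) measured 5.12 and 4.89 RPKM in vehicle, 5.35 and 5.39 RPKM after 2 h of Dex and 4.54 and 5.24 RPKM after 4 h, with changes of 0.10 (adjusted p = 0.54) and -0.03 (adjusted p = 0.79). After CpdA it measured 5.71 and 5.93 RPKM at 2 h and 5.60 and 6.13 RPKM at 4 h, above both vehicle samples at each time, with changes of 0.21 (adjusted p = 0.16) and 0.22 (adjusted p = 0.075). These CpdA changes were past the threshold in 2 of 22 and 6 of 22 alternatives. NCOA1 was lower with Dex than with CpdA at 4 h by -0.26 (adjusted p = 0.031), a call that held in 14 of 22 alternatives and was lost without Dex 4 h replicate 1 (-0.16, adjusted p = 0.13). NCOA2 (SRC-2 or GRIP1, which also serves as a corepressor of the receptor; ENSG00000140396, GRCh37 chr8:71022017-71316043, minus strand) passed no test, at 3.03 and 2.47 RPKM in vehicle and 1.79 and 3.06 RPKM after 4 h of Dex. Its other samples lay between 2.56 and 3.23 RPKM, and its changes from vehicle were between -0.22 and 0.17. The Dex 4 h change of -0.22 became -0.59 (adjusted p = 0.0071) without Dex 4 h replicate 2 and 0.15 (adjusted p = 0.41) without replicate 1.

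Within each sample, the makeup of the p160 family could be given without reference to other genes. NCOA3 made up 51.2% and 53.6% of the summed RPKM of NCOA1, NCOA2 and NCOA3 in vehicle, 55.7% and 57.4% after 2 h of Dex, and 69.3% and 69.2% after 4 h. The duplicates of Dex 4 h, which differed in the level of each gene, gave nearly the same share. With CpdA the share was 48.1% and 48.8% at 2 h and 55.7% and 54.2% at 4 h. For each NR3C1 transcript read per unit length there were 0.373 and 0.417 of NCOA3 in vehicle, 1.44 and 1.55 after 4 h of Dex, and 0.448 and 0.474 after 4 h of CpdA. The plot of ratios within each sample shows the shares beside those of the corepressors.

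**Figure D2:**
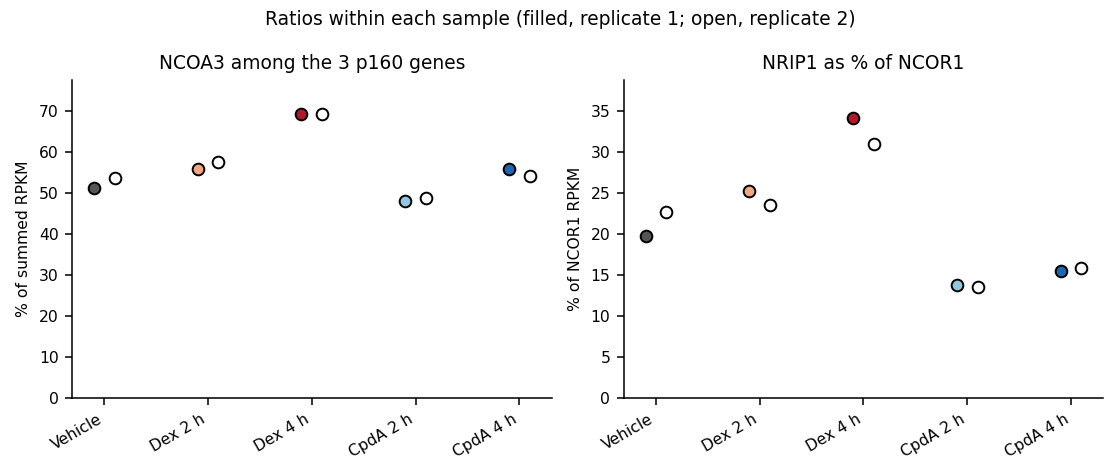
Left, NCOA3 as a percentage of the summed RPKM of NCOA1, NCOA2 and NCOA3; right, NRIP1 as a percentage of NCOR1 RPKM; both axes start at 0, and each point is 1 sample of the group on the horizontal axis (filled, replicate 1; open, replicate 2). The Dex 4 h samples are highest in both panels, at 69.3% and 69.2% on the left and 34.2% and 31.0% on the right.

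EP300 and CREBBP, the paralogous acetyltransferases that p160 proteins recruit, passed no test in any of the 8 comparisons. EP300 (ENSG00000100393, GRCh37 chr22:41488596-41576081, plus strand) measured 9.01 and 8.398 RPKM in vehicle, 8.90 and 9.09 RPKM after 2 h of Dex and 6.99 and 11.4 RPKM after 4 h. CREBBP (ENSG00000005339, GRCh37 chr16:3775055-3930714, minus strand) measured 7.92 and 7.96 RPKM in vehicle, 8.37 and 8.67 RPKM after 2 h of Dex and 6.82 and 9.83 RPKM after 4 h. In both genes the Dex 4 h duplicates held the lowest and the highest of the 10 samples. With CpdA, EP300 lay between 8.77 and 10.6 RPKM and CREBBP between 8.07 and 9.22 RPKM. The ratio of EP300 to CREBBP stayed between 1.02 and 1.16 in all samples.

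The means of these acetyltransferases at 4 h of Dex rest on duplicates that point to opposite sides of vehicle. The change from vehicle was 0.04 for EP300 (95% interval -0.37 to 0.44) and 0.04 for CREBBP (-0.26 to 0.35). Without Dex 4 h replicate 1 it was 0.39 (adjusted p = 0.012) and 0.30 (adjusted p = 0.0096), and without replicate 2 it was -0.31 (adjusted p = 0.023) and -0.22 (adjusted p = 0.030), so that either sample alone gave a call, in opposite directions. Dex and CpdA differed at 4 h by -0.04 for EP300 (-0.45 to 0.37) and by -0.01 for CREBBP (-0.32 to 0.29).

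The corepressors differed from each other. NRIP1, itself a target gene of steroid receptors (ENSG00000180530, GRCh37 chr21:16333556-16438257, minus strand, 4 exons), measured 2.94 and 3.06 RPKM in vehicle, 3.85 and 3.65 RPKM after 2 h of Dex and 3.61 and 4.65 RPKM after 4 h. After CpdA it measured 2.25 and 2.34 RPKM at 2 h and 2.44 and 2.59 RPKM at 4 h. Every Dex sample lay above both vehicle samples, and every CpdA sample lay below them. Such separation from vehicle was common: of the 12713 genes, 6545 showed it at Dex 2 h, 7005 at Dex 4 h, 6932 at CpdA 2 h and 8219 at CpdA 4 h. Against vehicle only Dex 4 h passed the test, at 0.44 ± 0.11 (adjusted p = 0.015), or 1.35 times vehicle. The other changes were 0.31 for Dex 2 h (adjusted p = 0.12), -0.37 for CpdA 2 h (adjusted p = 0.082) and -0.25 for CpdA 4 h (adjusted p = 0.15). In the same order, they were past the threshold in 4, 4 and 2 of 22 alternatives.

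Compared directly, NRIP1 was higher with Dex than with CpdA by 0.69 at 2 h (adjusted p = 0.0025) and by 0.68 at 4 h (adjusted p = 0.0011), 1.61 and 1.60 times, past the threshold in all 22 alternatives at both times. The Dex 4 h change against vehicle held in 20 of 22, and was lost when only the 4 samples of the comparison were fitted (adjusted p = 0.083) and without vehicle replicate 1 (0.41, adjusted p = 0.074). Without Dex 4 h replicate 2 it was 0.26 and without replicate 1 it was 0.61, both past the threshold. NRIP1 shares 7.3% of its exon bases with a lncRNA of the opposite strand, NCOA3 3.1% with SULF2 and NCOR1 2.3% with TTC19. Whether the counting used strand was not given in the sources used here, so reads there cannot be told apart.

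NCOR1, a scaffold of the HDAC3 corepressor complex (ENSG00000141027, GRCh37 chr17:15932379-16121499, minus strand, 46 exons), passed no test. It measured 14.9 and 13.5 RPKM in vehicle, 15.2 and 15.6 RPKM after 2 h of Dex, 10.6 and 14.97 RPKM after 4 h, and between 15.8 and 17.2 RPKM in the 4 CpdA samples. In 6932 (CpdA 2 h) and 8219 (CpdA 4 h) of the 12713 genes the duplicates did not overlap vehicle. For NCOR1 all CpdA samples lay above both vehicle samples, with changes of 0.24 (adjusted p = 0.35) and 0.18 (adjusted p = 0.38). Each of these CpdA changes was past the threshold in 4 of 22 alternatives. The difference between Dex and CpdA at 4 h was -0.35 (adjusted p = 0.069), and rested on which Dex 4 h sample was used: it was -0.60 (adjusted p = 0.00027) without replicate 2 and -0.10 (adjusted p = 0.30) without replicate 1. Against vehicle the Dex 4 h change of -0.17 became -0.42 (adjusted p = 0.0021) and 0.08 (adjusted p = 0.43). A transcribed pseudogene copy, NCOR1P1, has its own row in the files, and reads of the pair may have been split between them. NRIP1 amounted to 19.8% and 22.7% of NCOR1 in vehicle, 34.2% and 31.0% after 4 h of Dex and 13.8% and 13.6% after 2 h of CpdA.

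The number of members called in each comparison was set beside the share of all genes called. With Dex 1 of 9 passed at 2 h, NR3C1, where 10.3% of the 12713 genes did, and 4 of 9 at 4 h (NR3C1 and NR3C2 lower, NCOA3 and NRIP1 higher), where 27.4% did (9.26% higher and 18.2% lower). Of these 4, all but NRIP1 also changed by more than 1.5-fold, as did 8.71% of all genes. With CpdA none of the 9 passed limma's threshold at 2 h or at 4 h, where 6.18% and 20.5% of all genes did. At an unadjusted p under 0.05 in the same fit there were 3 at 2 h (NR3C1, NCOA1 and NRIP1) and 2 at 4 h (NCOA1 and NCOA3), and after the correction for transcript length described below 4 and 3 of the 9 were called. The median change of the members was 0.10, -0.03, 0.16 and 0.06 for Dex 2 h, Dex 4 h, CpdA 2 h and CpdA 4 h, against -0.02, -0.05, -0.02 and -0.04 over all genes. In the same order of groups, 7, 4, 6 and 5 of the 9 members did not overlap vehicle. Over all 12713 genes 6545, 7005, 6932 and 8219 did not.

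Between the ligands, 3 of 9 differed at 2 h (NR3C1 lower, NCOA3 and NRIP1 higher with Dex), where 13.7% of all genes did. At 4 h 5 of 9 differed (NR3C1, NR3C2 and NCOA1 lower, NCOA3 and NRIP1 higher), where 33.4% did. The doses were 100 nM for Dex and 10 µM for CpdA, so ligand and dose cannot be told apart. Between 2 h and 4 h, 2 of 9 changed with Dex (NR3C1 lower, NCOA3 higher; 13.6% of all genes) and 0 of 9 with CpdA (12.4% of all genes), the latter with 1 gene, NCOA3, at an unadjusted p under 0.05 in limma (0.31, adjusted p = 0.094). The plot of changes against vehicle gives the intervals.

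**Figure D3:**
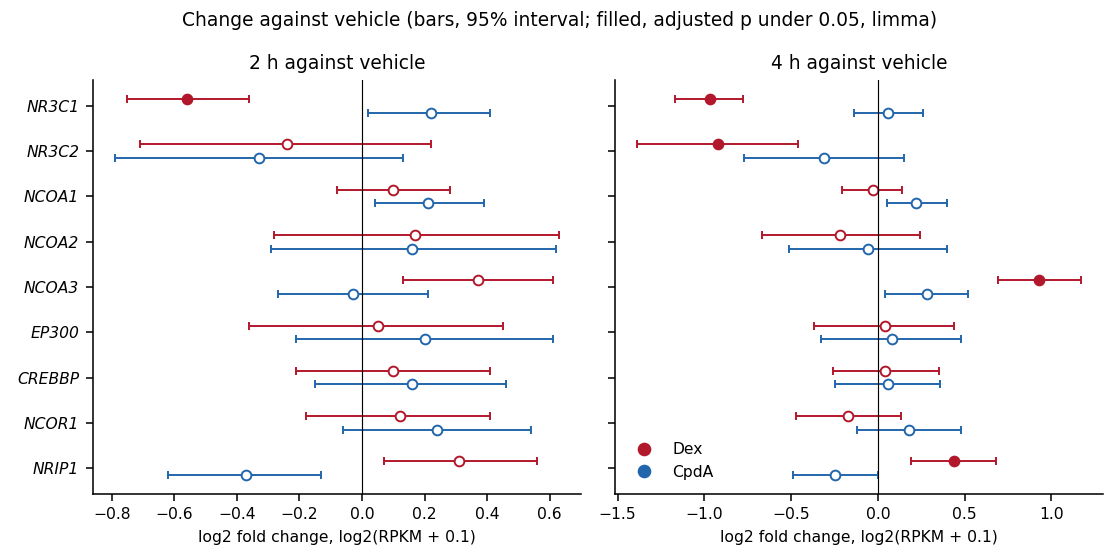
Log2 fold change against vehicle on the log2(RPKM + 0.1) scale (horizontal axis, a different range in each panel) for the 9 genes at 2 h (left) and 4 h (right), Dex in red and CpdA in blue; bars are 95% intervals and filled points have an adjusted p under 0.05 in limma. Filled points are NR3C1 (-0.56) at 2 h and NR3C1 (-0.97), NR3C2 (-0.92), NCOA3 (0.93) and NRIP1 (0.44) at 4 h, all with Dex.

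The Dex 4 h duplicates differed from each other in all 9 members. Replicate 1 lay below replicate 2 in 9 of 9, by 0.20 to 0.74 on the log2 scale (median difference -0.42). All 9 have long transcripts, with canonical lengths of 5.79 to 10.79 kb against a median of 3.24 kb over the expressed genes with a length, of which 19.0% were as long as the shortest member. Across 11471 expressed genes, which are not independent of each other, the difference between the duplicates fell with transcript length (Spearman's rho -0.62). Its median was -0.21 for genes of at least the shortest member's length and 0.14 for genes under 1500 bases. The other treated groups showed a smaller difference of the same sign: rho was -0.35 in CpdA 2 h and -0.24 in both Dex 2 h and CpdA 4 h, and replicate 1 was the lower in 9, 7 and 8 of the 9 members, with median differences of -0.11, -0.03 and -0.07. In vehicle rho was 0.08 and replicate 1 was the lower in 3 of 9.

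**Figure D4:**
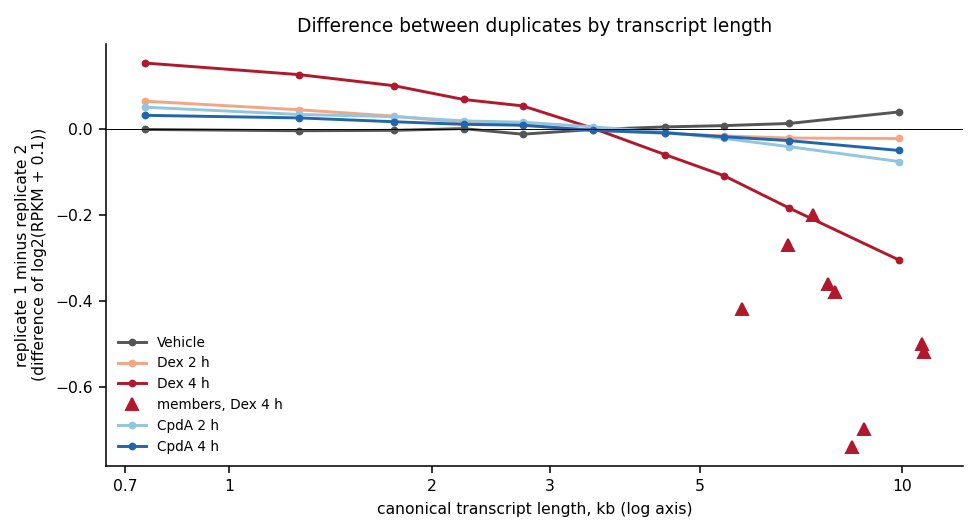
Median difference between replicate 1 and replicate 2 (difference of log2(RPKM + 0.1), vertical axis) in classes of canonical transcript length (kb, log axis) for the 5 groups, with the 9 members of Dex 4 h as triangles. The Dex 4 h line falls from above 0 for short transcripts to below 0 for long ones, and the members lie between -0.20 and -0.74.

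The calls at Dex 4 h were therefore also computed without each of these samples and after a correction for transcript length in each sample, the correction being chosen after seeing the data. NR3C1 was -0.84 (adjusted p = 6.4e-05) without replicate 1 and -0.86 (adjusted p = 4.7e-06) with the correction. NCOA3 was 1.12 (adjusted p = 1.1e-05) and 1.06 (adjusted p = 1.5e-06). NRIP1 was 0.61 (adjusted p = 0.00082) and 0.56 (adjusted p = 0.00038), and NR3C2 -0.72 (adjusted p = 0.051) and -0.82 (adjusted p = 0.0093). With the correction and without replicate 1 together, the NR3C2 call was also lost. Among genes as long as the members the median change at Dex 4 h was -0.12, and 30.2% were called.

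**Figure D5:**
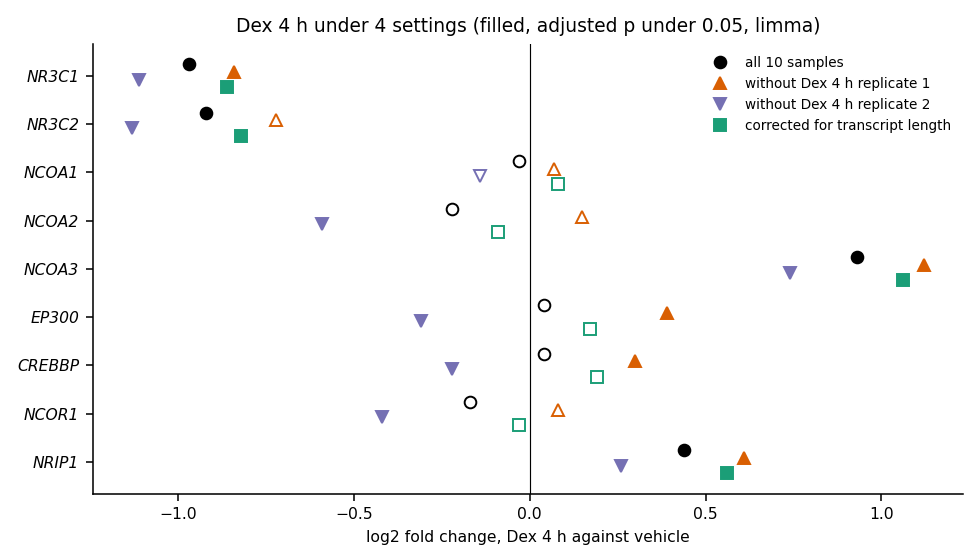
Log2 fold change of Dex 4 h against vehicle (horizontal axis) for the 9 genes with all 10 samples, without either Dex 4 h sample, and after a correction for transcript length; filled symbols have an adjusted p under 0.05 in limma. NR3C1 and NR3C2 stay left of 0 and NCOA3 and NRIP1 right of 0 in each setting, with NR3C2 open without replicate 1. In contrast, NCOA1, NCOA2, NCOR1, EP300 and CREBBP change side between the settings that leave out a sample.

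Other coregulators of nuclear receptors, from a list of 20 further coactivators, gave mixed directions. PPARGC1A (PGC-1α) passed the filter only through the Dex samples and is left out of counts and tests: it measured 0.272 and 0.204 RPKM in vehicle, 0.511 and 0.635 RPKM after 2 h of Dex, 0.488 and 0.578 RPKM after 4 h, and between 0.210 and 0.393 RPKM with CpdA. At Dex 4 h 3 of the other 18 tested were higher and 3 lower, where 9.26% and 18.2% of all genes were. MED14, a subunit of the Mediator that links receptors to RNA polymerase, fell from 32.8 and 31.9 RPKM to 18.1 and 22.7 RPKM (-0.67, adjusted p = 0.00039). NCOA7, a coactivator first described for the oestrogen receptor, fell by 0.79 (adjusted p = 0.0050), from 4.64 and 3.26 RPKM to 1.97 and 2.48 RPKM. MED24, another Mediator subunit, was higher with Dex at 2 h (0.16, adjusted p = 0.038) and at 4 h (0.29, adjusted p = 0.00067) and lower with CpdA at 4 h (-0.13, adjusted p = 0.044).

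With CpdA 1 of these 18 was lower at 2 h and 3 were lower at 4 h, where 4.29% and 13.8% of all genes were. None was called higher, where 240 of the 12713 genes were at 2 h and 860 at 4 h. DDX17, an RNA helicase and coactivator, measured 32.8 and 32.1 RPKM in vehicle, 27.6 and 27.5 RPKM at 2 h of CpdA (-0.23, adjusted p = 0.042) and 20.9 and 22.2 RPKM at 4 h (-0.59, adjusted p = 0.00018). After 4 h of Dex its change was -0.07 (adjusted p = 0.39). EHMT2, a histone methyltransferase, fell at 4 h with both ligands, by 0.35 with CpdA (adjusted p = 0.029) and by 0.30 with Dex (adjusted p = 0.043).

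Of 15 further corepressors listed 13 passed the filter. At Dex 4 h 0 of these rose and 1 fell, where 9.26% of all genes rose and 18.2% fell. At CpdA 4 h 1 rose and 2 fell, where 6.76% rose and 13.8% fell. TBL1XR1, a subunit of the NCOR1 complex, fell with CpdA at 4 h, from 14.1 and 12.1 RPKM to 8.14 and 7.77 RPKM (-0.71, adjusted p = 0.00037), whereas its Dex 4 h change was 0.08 (adjusted p = 0.47). HEXIM1, an inhibitor of the elongation factor P-TEFb that binds the glucocorticoid receptor, fell with Dex at 2 h (-0.35, adjusted p = 0.0036) and 4 h (-0.32, adjusted p = 0.0027) and with CpdA at 4 h (-0.28, adjusted p = 0.0090). CTBP2, a corepressor that binds NRIP1 among others, rose with CpdA at 4 h, from 10.5 and 10.2 RPKM to 11.7 and 11.8 RPKM (0.18, adjusted p = 0.015).

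Subunits of the chromatin remodelling complex SWI/SNF and genes of ligand access were read last. SMARCD2 was the 1 of 10 SWI/SNF subunits called against vehicle, lower at 4 h with Dex (-0.14, adjusted p = 0.045) and with CpdA (-0.35, adjusted p = 0.00068). Of all genes 18.2% were lower at 4 h with Dex and 13.8% with CpdA. The Dex call of SMARCD2 was lost under several alternatives, with an adjusted p of 0.34 after median centring. Between the ligands at 4 h 3 of 10 were higher with Dex and 0 lower, where 1955 of the 12713 genes were higher and 2286 lower. H6PD, which supplies cofactor to the cortisol-regenerating enzyme HSD11B1, was the only 1 of 5 genes of ligand access that passed the filter. It fell with CpdA at 4 h by 0.35 (adjusted p = 0.0045), with a Dex 4 h change of 0.04, and was higher with Dex than with CpdA at 2 h (0.31, adjusted p = 0.010) and 4 h (0.39, adjusted p = 0.0011). HSD11B1, HSD11B2, ABCB1 and SERPINA6 did not exceed 0.501 RPKM in any sample.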

How the data were processed

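Single-end RNA-seq libraries (TruSeq kit) of MDA-MB-231 cells were aligned and quantified by the authors; the submitters' processing notes name TopHat2 2.0.13, Bowtie, Partek 6.6 and hg19 without roles. The authors deposited RPKM per gene symbol for each of 10 samples. RPKM are not counts, so absolute depth is unknown, and only relative depth was estimated from the smallest steps of low values.

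Values were taken as log2(RPKM + 0.1). The 12713 genes that reached 0.5 RPKM in 2 or more samples were fitted with limma 3.58.1 (R 4.3.3) on 5 group means with an abundance trend, two-sided, with Benjamini-Hochberg adjustment over all of them; a gene was called at an adjusted p under 0.05, and a second rule added a fold over 1.5. The script was tested on simulated data. Tables used Python 3.11.15, pandas 2.3.3, numpy 2.4.6, scipy 1.17.1 and matplotlib 3.10.9. Coordinates and transcript lengths came from GENCODE lifted to GRCh37. The study describes the samples as biological replicates, but the labels do not say whether they came from separate cultures. If they did not, p-values measure only the spread between these samples. With 2 against 2 samples an exact permutation test cannot go below p = 0.333.

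The members and lists were chosen with earlier results of these data known. All 9 members were described. From the other lists the genes named were the called genes with the greatest absolute log2 change, up to 3 per list and comparison with vehicle, and for NR3C1 and each member called against vehicle the 3 genes with the highest Pearson correlation over the 10 samples. Alternatives were other pseudocounts, filters and normalizations, no abundance trend, fits of 4 samples, a replicate block, each sample left out, and, chosen after seeing the data, a length correction with and without Dex 4 h replicate 1. Chromatin samples (12) were not analysed here. Some genes of the other lists are not reported here.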

Additional observations from a re-analysis of the deposited data

Results flagged for a closer look

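NR3C1 and NCOA3 differed between the time points of Dex treatment by a direct test. NCOA3 was higher at 4 h than at 2 h by 0.57 on the log2 scale (adjusted p = 0.0097, limma), from 10.6 and 11.5 RPKM to 14.3 and 18.7 RPKM. NR3C1 was lower at 4 h than at 2 h by -0.41 (adjusted p = 0.015), from 14.6 and 14.7 RPKM to 9.96 and 12.1 RPKM. Both calls were lost with only the 4 samples compared (adjusted p = 0.066 and 0.074) and without Dex 2 h replicate 1 (0.082 and 0.087), and that of NR3C1 also without Dex 2 h replicate 2 (0.085) and without a filter (0.052). With CpdA the same difference was 0.31 for NCOA3 (adjusted p = 0.094) and -0.16 for NR3C1 (adjusted p = 0.27). Dex 4 h replicate 1 lay below replicate 2 by 0.38 for NCOA3 and by 0.27 for NR3C1; the length correction without that sample gave 0.77 for NCOA3 and -0.26 for NR3C1, and the part of transcript length in the differences was not tested further.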

How the results depend on the processing

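Changes of NR3C1 with Dex at 2 h and 4 h, of NCOA3 with Dex at 4 h, and the ligand differences of NR3C1 and NRIP1 at both times and of NCOA3 at 4 h kept their direction and call in all 22 alternatives. The count of members called was less stable. At Dex 2 h it went from 1 to 2 with quantile normalization, median centring, the 4 samples alone or the replicate block, and to 3 with the length correction, with or without Dex 4 h replicate 1. At CpdA 2 h it went from 0 to 4 with the correction (NR3C1, NCOA1 and NCOR1 higher, NRIP1 lower) and to 6 with the correction and without that sample. At CpdA 4 h it went from 0 to 1 with quantile normalization or the 4 samples alone, 2 with median centring, 3 with the correction and 4 with the correction and without that sample. Between ligands, 3 at 2 h became 5 with the correction and without that sample, and 5 at 4 h became 3 without a filter or with the 4 samples alone. For Dex 4 h against 2 h, 2 became 1 without a filter, 0 with the 4 samples alone and 5 with the correction and without that sample. For CpdA 4 h against 2 h, 0 became 2 with the 4 samples alone and 1 with the correction, with or without that sample. Why these counts moved was not tested.

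Leaving out 1 sample gave 1 to 3 members called at Dex 2 h, 3 to 8 at Dex 4 h, 0 to 3 at CpdA 2 h, 0 to 4 at CpdA 4 h, 2 to 3 between ligands at 2 h and 3 to 9 at 4 h, 0 to 8 for Dex 4 h against 2 h, and 0 to 1 for CpdA 4 h against 2 h. The highest counts came without a Dex 4 h sample. The Dex 4 h duplicates then no longer enter the shared estimate of spread. In comparisons that do not include Dex 4 h, the log2 changes stay the same and only the spread they are tested against differs. In comparisons that include Dex 4 h, its mean changes as well, and the part of each in the counts was not tested. At Dex 4 h against vehicle EP300 ranged from -0.31 (without replicate 2) to 0.39 (without replicate 1) and CREBBP from -0.22 to 0.30. Against CpdA at 4 h they ranged from -0.39 to 0.31 and from -0.27 to 0.25, and were 0.24 and 0.16 with the correction and without replicate 1. Against Dex 2 h they ranged from -0.36 to 0.34 and from -0.32 to 0.21, and were 0.35 and 0.20 with the correction and without replicate 1.

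Over all genes, leaving out 1 sample gave 766 to 1710 calls at Dex 2 h (1311 with all samples), 2772 to 4772 at Dex 4 h (3487), 216 to 1446 at CpdA 2 h (786) and 1190 to 3637 at CpdA 4 h (2609). The lowest counts were without Dex 2 h replicate 1, vehicle replicate 1, CpdA 2 h replicate 1 and CpdA 4 h replicate 1. It gave 959 to 2297 between ligands at 2 h (1743), 2759 to 5183 at 4 h (4241), 592 to 3440 for Dex 4 h against 2 h (1725) and 261 to 2500 for CpdA 4 h against 2 h (1577). With only the 4 samples compared, Dex 4 h gave 1775, CpdA 2 h 480, Dex 4 h against 2 h 696 and CpdA 4 h against 2 h 3500.

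Deviations of samples with the same replicate number correlated over 0.1 in 3 of 10 pairs of groups (mean 0.054, range -0.057 to 0.198), so the numbers were not taken as a pairing, although replicate 1 was the lower for most members in all 4 treated groups. With the replicate block 2 members were called at Dex 2 h, NCOA3 being added (adjusted p = 0.034). NR3C2 was not fitted under the stricter filter. Low levels limit NR3C2 most, at or below 1.73 RPKM.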

Other observations

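The genes whose levels over the 10 samples were most like those of the changed members were named as a description, with Pearson's r of log2(RPKM + 0.1) over 10 samples that share groups of 2, library preparation and depth. For NR3C1 they were AZIN1 (0.996), IPMK (0.992) and SSFA2 (0.990). For NR3C2 they were STARD8 (0.964), TOP3A (0.963) and ZNF827 (0.958). For NCOA3 they were CREBRF (0.974), NEDD4 (0.973) and LHFPL2 (0.970), and for NRIP1 ZBTB44 (0.986), CRK (0.983) and MBOAT2 (0.982).

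ERBB2, one of the markers used to check the line, was called at 4 h in opposite directions with the ligands. It measured 18.7 and 17.7 RPKM in vehicle, 21.6 and 20.7 RPKM with Dex (0.22, adjusted p = 0.0083) and 16.4 and 15.9 RPKM with CpdA (-0.17, adjusted p = 0.041).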
